A study of Mus musculus with 12 samples.

Results

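Lysosomal cathepsins are the proteases with which macrophages break down the proteins they take up. The members are the 10 cathepsin genes Ctsa, Ctsb, Ctsc, Ctsd, Ctse, Ctsh, Ctsk, Ctsl, Ctss and Ctsz. They were chosen by gene symbol, with earlier results of these data known. They were read by every probe set that the platform annotation pairs with exactly 1 of these symbols, which gave 16 of the 22626 probe sets tested and 10 of 12393 genes. All 10 had a probe set, with 4 for Ctsb, 3 for Ctsz, 2 for Ctse and 1 for each of the others. A gene's main value is that of its probe set with the highest mean over the 12 arrays.

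Total RNA was hybridised to 12 Affymetrix mouse arrays in 4 groups of 3. RAW264.7, a mouse macrophage-like cell line, was either unstimulated (vehicle, in the design text) or cultured overnight in estradiol at 1 ug/mL. Macrophages from bronchoalveolar lavage (BAL), the fluid washed from the airspaces, came from control or pregnant mice and, in the design text, went straight to RNA extraction. The treatment label names estradiol for all 12 samples, lavage and unstimulated included, so the groups here follow the group label and the design text. No strain, age, genotype, sex, stage of pregnancy or sorting of the lavage cells is given in the labels, nor whether replicates are separate cultures or animals, so p-values measure the spread between these samples only. The series asks how estradiol and pregnancy act on macrophage RNA.

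Cathepsins are made as inactive precursors, carried to lysosomes largely by mannose 6-phosphate receptors, and activated by acid pH and by other proteases. They fall into cysteine (Ctsb, Ctsc, Ctsh, Ctsk, Ctsl, Ctss and Ctsz), aspartic (Ctsd and Ctse) and serine (Ctsa) proteases. In macrophages they degrade engulfed proteins and trim the invariant chain that guards the groove of MHC class II molecules. Cystatins and some serpins inhibit them.

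Values below are log2(intensity + 1), differences are on that scale, and "called" means a limma adjusted p under 0.05 over all 22626 probe sets. Levels are compared within a probe set only, since probe sets bind with different strength. The files hold no detection calls, so each array's 40th percentile (6.98 to 7.14) serves as a marker of dim signal. All 9 alveolar macrophage markers measured, among them Siglecf, Chil3 and Car4, were above it on all 6 lavage arrays. On the RAW264.7 arrays 2 of 9 were (Itgax and Fabp4), with 6 of the 7 general macrophage markers. Fabp4 was higher in the cell line (13.57 in unstimulated cells, 11.67 in control lavage). Lung epithelial markers also gave signal in lavage, with 7 and 8 of 9 above it on all 3 control and all 3 pregnant arrays, and none on the RAW264.7 arrays. Which cells this signal came from was not tested. Of the markers of other cells, 4 of 8 neutrophil, 2 of 8 T cell, 2 of 5 dendritic cell, 1 of 6 B cell, 1 of 3 NK cell and 1 of 3 red cell genes were above it on all 3 control lavage arrays, and 0 of 5 mast cell and 0 of 4 endothelial genes. On all 3 unstimulated RAW264.7 arrays the counts were 1 neutrophil, 1 T cell, 1 B cell and 1 NK cell gene, and 0 for the other types. Estradiol replicate 2 stood apart in the control probe sets for RNA integrity, where actin's 3' signal exceeded its 5' signal by 0.74, the remaining cell line arrays giving 0.39 to 0.48. Results that rest on it are given with and without it.

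In RAW264.7 cells, the number of cathepsin calls with estradiol was near the share of any probe set. The call for Ctsh was between signals that were dim on all 6 arrays. Of the 16 probe sets 1 was called higher (Ctsh) and 1 lower (the dimmer Ctse probe set), against 5.1% and 4.17% of all probe sets. For the 7 genes other than Ctsh, Ctsc and Ctse, the main differences lay between -0.07 and 0.11, and all their 95% intervals between -0.19 and 0.22 (limma adjusted p = 0.201 to 0.976). The median difference of the 10 main probe sets was 0.0054, beside 0.0063 over all probe sets. In pregnancy 0 of 16 was called, against 0% of all probe sets. The large differences lay between the sources, where the lavage samples had more Ctsh and Ctsc RNA, and less Ctse and Ctsk, than the cell line.

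**Figure D1:**
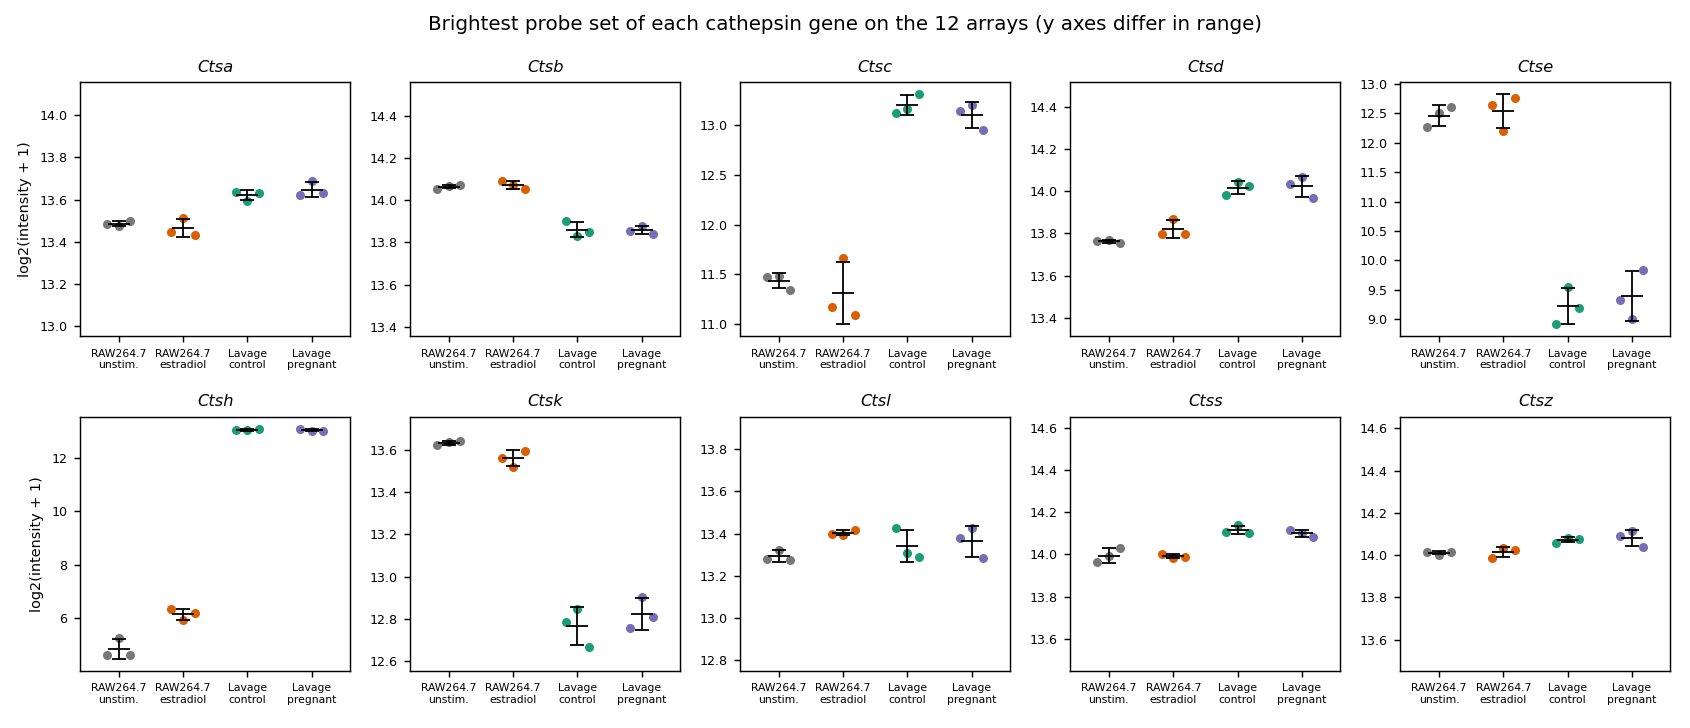
Level of the main probe set of each of the 10 cathepsin genes, as log2(intensity + 1), on the 12 arrays. Points are arrays, and bars give the mean and SD of 3 arrays. Ctsh separates the sources by the widest gap (4.62 to 6.33 in RAW264.7 cells, 13.01 to 13.10 in lavage), and control and pregnant lavage overlap in every panel.

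Cathepsin H is an aminopeptidase, known in lung also from type II epithelial cells, where it takes part in processing surfactant protein. Its level was 4.62, 5.28 and 4.64 on the unstimulated arrays and 6.33, 5.92 and 6.21 on the estradiol arrays. It was 13.03, 13.03 and 13.10 in control lavage and 13.10, 13.01 and 13.02 in pregnant lavage. The estradiol arrays thus lay above the unstimulated ones with no overlap, yet all 6 RAW264.7 arrays lay under the 40th percentile.

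The dim Ctsh signal was higher with estradiol by 1.31 ± 0.20 (SE, 95% interval 0.84 to 1.78, 3 against 3 arrays, limma adjusted p = 0.0109), and by 1.43 without estradiol replicate 2 (adjusted p = 0.0139). The call ended without unstimulated replicate 3 (1.21, adjusted p = 0.0505), and over the alternatives in which it was tested its adjusted p ranged from 0.00063 to 0.0505. A level above background was shown for neither group, so the difference is one of signal on this probe set, with no fold and no statement on the amount of Ctsh RNA. In pregnancy Ctsh differed by -0.01 ± 0.06 (interval -0.16 to 0.14, limma adjusted p = 0.976). The difference between the pregnancy and the estradiol change was -1.32 ± 0.22 (limma adjusted p = 0.0116, all 12 arrays), the only member among 16 called in that test, and it rests on the same dim signals. The background was 1.65% of probe sets called lower and 1.5% called higher.

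Between the sources the Ctsh means were 13.05 ± 0.04 (SD, n = 3) in control lavage and 4.85 ± 0.37 in unstimulated RAW264.7 cells. The measured difference was called (limma adjusted p = 1.6e-07). With the dim arrays held at their 40th percentile, a bound that was not itself tested, lavage was at least 65.4-fold higher. The lung epithelial markers moved the same way. All 9 of 9 were called higher in lavage, and their summed level was 14.71 to 15.14 in control lavage against 8.54 to 8.85 in unstimulated cells. Such a sum is set mostly by its brightest probe sets, in control lavage Krt19 (13.64), Scgb1a1 (13.02) and Cdh1 (12.15). The surfactant genes Sftpc, Sftpa1 and Sftpb were at 10.66, 9.83 and 6.82 there. The part of the lung epithelial markers in the Ctsh result was not tested. The summed level of the alveolar macrophage markers was 16.29 to 16.36 against 13.94 to 13.96. In unstimulated cells only Fabp4 (13.57) and Itgax (11.69) of them were above the 40th percentile, so these set most of that sum. The median source difference was 7.38 for the alveolar macrophage markers and 4.44 for the lung epithelial markers. Of the alveolar macrophage markers 8 were called higher in control lavage and 1 lower (Fabp4, -1.90). Over all probe sets 26.4% were called higher and 34.8% lower.

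Cathepsin C, or dipeptidyl peptidase I, removes pairs of amino acids and activates the granule serine proteases of neutrophils, mast cells and cytotoxic lymphocytes. Its level was 11.48, 11.48 and 11.35 in unstimulated cells and 11.17, 11.67 and 11.09 with estradiol. It was 13.12, 13.16 and 13.31 in control lavage and 13.14, 13.20 and 12.95 in pregnant lavage. Estradiol replicate 2 was the highest RAW264.7 array, and the other estradiol arrays were the lowest.

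The estradiol difference of Ctsc was -0.12 ± 0.15 (interval -0.48 to 0.24, limma adjusted p = 0.662). Without estradiol replicate 2, the array whose RNA integrity stood apart, it was -0.30 ± 0.06 and called (adjusted p = 0.0372). With array weights, which count less reliable arrays less, it was -0.33 (adjusted p = 0.0131). Control lavage was 3.4-fold higher than unstimulated cells (1.76 ± 0.07, limma adjusted p = 2.5e-06), and pregnancy gave -0.10 ± 0.09 (interval -0.32 to 0.12, adjusted p = 0.742). The 9 granule serine proteases that it is known to activate, such as Elane and Gzmb, were under the 40th percentile in the means of all 4 groups, with 0 called for estradiol and 0 for pregnancy.

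Cathepsin E is an aspartic protease of endosomes rather than lysosomes proper, and its probe sets did not move alike. The main probe set, 1427797_s_at, read 12.26, 12.50 and 12.60 in unstimulated cells and 12.63, 12.20 and 12.76 with estradiol, with 8.93, 9.54 and 9.20 in control and 9.34, 9.01 and 9.84 in pregnant lavage. The suffix _s marks probes shared by several transcripts, possibly of other genes. The dimmer probe set, 1418989_at, read 8.81, 8.83 and 8.79 in unstimulated cells and 8.42, 8.48 and 8.36 with estradiol. It read 7.38, 6.58 and 5.47 in control and 6.12, 6.80 and 5.86 in pregnant lavage, where 1 of 6 arrays was above the 40th percentile.

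With estradiol the dimmer Ctse probe set fell by 0.39 (SE 0.05, 1.31-fold lower, limma adjusted p = 0.00753), while the main one was at 0.08 ± 0.16 (interval -0.30 to 0.46, adjusted p = 0.802). Without estradiol replicate 2 these were -0.42 (adjusted p = 0.0066) and 0.25 (adjusted p = 0.219), and with array weights the main one was called at 0.28 (adjusted p = 0.0465). In one fit of all 12 arrays, which shares the wide lavage spread, the call of the dimmer probe set ended (adjusted p = 0.626). Both probe sets were lower in control lavage than in unstimulated cells, at -3.23 ± 0.17 for the main one (9.37-fold lower, limma adjusted p = 7.5e-06) and -2.33 ± 0.44 for the other (adjusted p = 0.00358). Pregnancy gave 0.17 ± 0.24 and -0.21 ± 0.49, with the widest intervals of all members (-0.41 to 0.75 and -1.38 to 0.95).

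Cathepsin D, the main aspartic protease of lysosomes, is a long-known estrogen-induced gene of breast cancer cells. It read 13.77, 13.77 and 13.76 in unstimulated cells and 13.80, 13.87 and 13.80 with estradiol. Control lavage had 13.98, 14.04 and 14.03 and pregnant lavage 14.03, 14.07 and 13.97. The estradiol and unstimulated arrays did not overlap, but the difference of 0.06 ± 0.05 (interval -0.06 to 0.17) did not pass (limma adjusted p = 0.505). Its interval ends at 1.13-fold higher. Control lavage was 1.19-fold higher than unstimulated cells (0.25 ± 0.05, limma adjusted p = 0.0029), and pregnancy gave 0.01 ± 0.06 (adjusted p = 0.983).

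Cathepsin K cleaves collagen and is best known from osteoclasts, a fate RAW264.7 cells can be driven to. It read 13.62, 13.63 and 13.64 in unstimulated cells and 13.56, 13.52 and 13.60 with estradiol, against 12.78, 12.85 and 12.67 in control and 12.76, 12.91 and 12.81 in pregnant lavage. All estradiol arrays lay just under all unstimulated ones, by -0.07 ± 0.05 (interval -0.19 to 0.04, limma adjusted p = 0.398). Control lavage was 1.82-fold lower than unstimulated cells (-0.87 ± 0.06, limma adjusted p = 2.8e-05). Of 7 other osteoclast genes measured, estradiol raised Mmp9 (1.58 ± 0.06) and lowered Acp5 (-0.37 ± 0.05), against 5.1% and 4.17% of all probe sets. Of these 7, Acp5, Mmp9, Nfatc1 and Ocstamp were above the 40th percentile on all 3 unstimulated arrays, and Calcr, Oscar and Itgb3 on none of the 12 arrays.

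**Figure D2:**
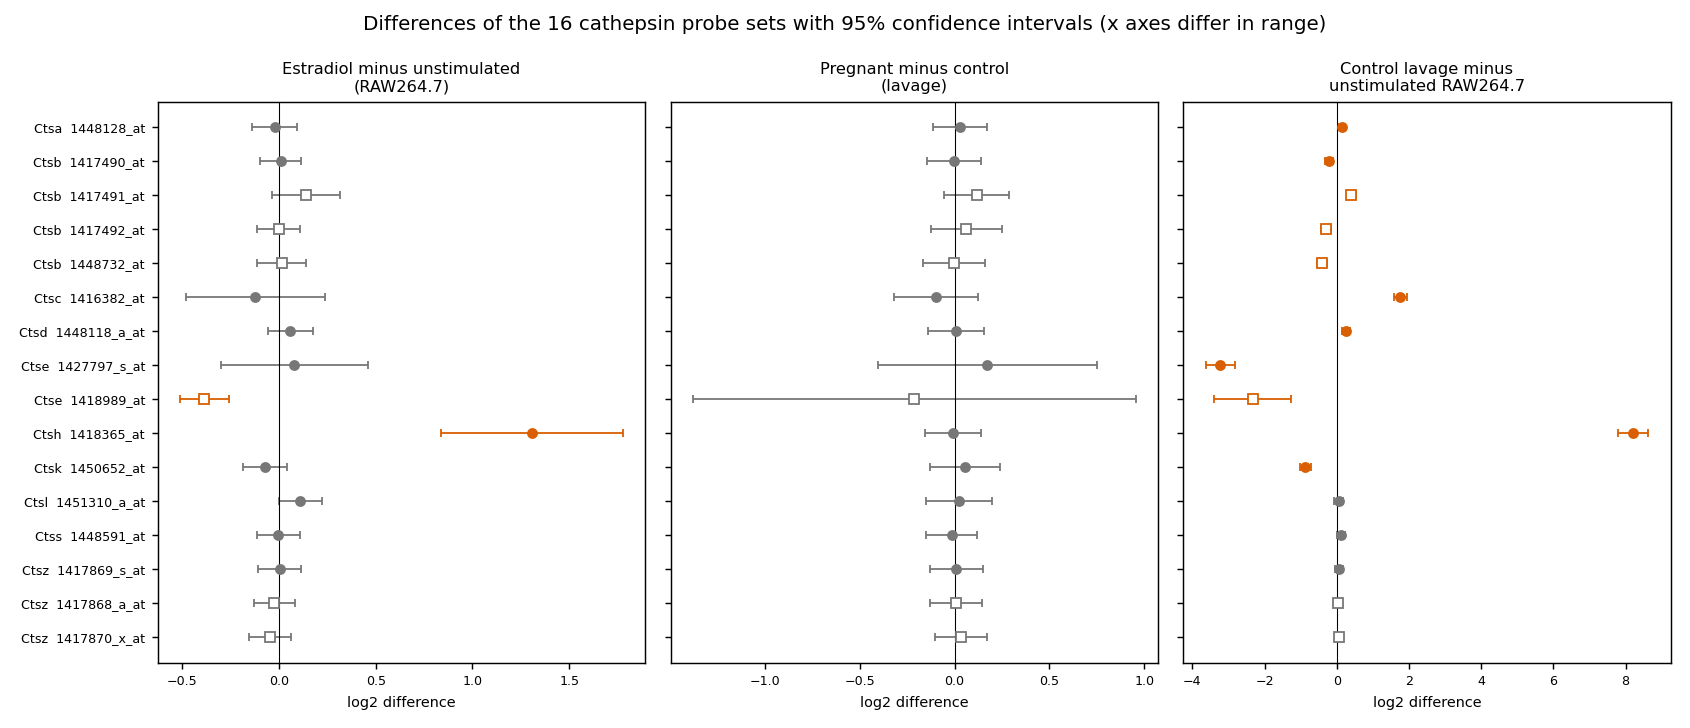
Log2 difference of each of the 16 cathepsin probe sets with its 95% confidence interval for estradiol, pregnancy and source (3 against 3 arrays each). Filled circles are a gene's main probe set, open squares its other probe sets, and orange marks a limma adjusted p under 0.05. With estradiol Ctsh (1.31, between dim signals) and the dimmer Ctse probe set (-0.39) are orange, and in pregnancy none is. Between sources the main Ctse probe set lies at -3.23, and the Ctsh point is plotted from its dim cell line signal, for which 6.03 is the lower bound.

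Cathepsin L and cathepsin S are the endopeptidases that trim the invariant chain, in thymic epithelium and in antigen-presenting cells respectively. Ctsl read 13.28, 13.32 and 13.27 in unstimulated cells, 13.40, 13.39 and 13.42 with estradiol, 13.43, 13.31 and 13.29 in control lavage and 13.38, 13.43 and 13.28 in pregnant lavage. Every estradiol array was above every unstimulated one, with a difference of 0.11 ± 0.05 (interval -0.0002 to 0.22) that did not pass (limma adjusted p = 0.201). It passed with an intensity-dependent robust prior (adjusted p = 0.0258) and with array weights (0.0177), at 0.11 and 0.12. Between sources it differed by 0.05 ± 0.06 (adjusted p = 0.479).

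Ctss read 13.96, 13.99 and 14.03 in unstimulated cells and 14.00, 13.98 and 13.99 with estradiol, which overlap. Control lavage had 14.11, 14.14 and 14.10 and pregnant lavage 14.11, 14.10 and 14.08. The estradiol difference was -0.0040 ± 0.05 (interval -0.12 to 0.11, limma adjusted p = 0.969). The source difference of 0.12 ± 0.05, with no overlap, just missed the threshold (adjusted p = 0.0617) and passed in 4 of its alternatives (adjusted p from 0.00199 to 0.0474).

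Ctss serves the class II loading pathway. With estradiol 4.17% of all probe sets were called lower and 5.1% higher. Of 10 genes of that pathway measured, estradiol lowered 4 and raised 2, with a median of -0.18. The 4 with the smallest p were H2-Aa, H2-Ab1 (-0.95 ± 0.06), H2-Ea and H2-DMa, which helps exchange peptides (0.56 ± 0.06). The remaining calls were Cd74, the invariant chain gene, which was higher (0.27 ± 0.05, limma adjusted p = 0.0283), and H2-Eb1, which was lower (-0.55 ± 0.11, 0.0298). H2-Aa and H2-Ea were dim with estradiol, and with those arrays held at their 40th percentile they were at least 2.47-fold and 1.46-fold lower. In control lavage 7 of 10 were higher and 1 lower than in unstimulated cells, against 26.4% and 34.8% of all probe sets. The largest differences were those of H2-DMa (4.40), H2-Ea (4.01), H2-Aa (2.88) and H2-DMb2, which was dim in unstimulated cells and at least 5.26-fold higher in lavage. The 1 lower gene was Cd74 (-0.44 ± 0.15, limma adjusted p = 0.0399).

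Cathepsin B, a dipeptide-releasing carboxypeptidase and endopeptidase, was read by 4 probe sets. The main one, 1417490_at, read 14.06, 14.06 and 14.07 in unstimulated cells and 14.09, 14.07 and 14.05 with estradiol, with 13.90, 13.83 and 13.85 in control and 13.85, 13.88 and 13.84 in pregnant lavage. None of the 4 was called for estradiol (differences from -0.0028 to 0.14) or for pregnancy (-0.0030 to 0.12). Between sources they disagreed in direction. Lavage minus cell line was -0.20, -0.29 and -0.41 on 1417490_at, 1417492_at and 1448732_at, and 0.41 on 1417491_at, and all 4 were called (limma adjusted p = 0.00815, 0.00466, 0.000919 and 0.000573). Averaged over its probe sets, Ctsb differed by -0.12 ± 0.05 and was not called (adjusted p = 0.0628), so the arrays give no single source direction for this gene.

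**Figure D3:**
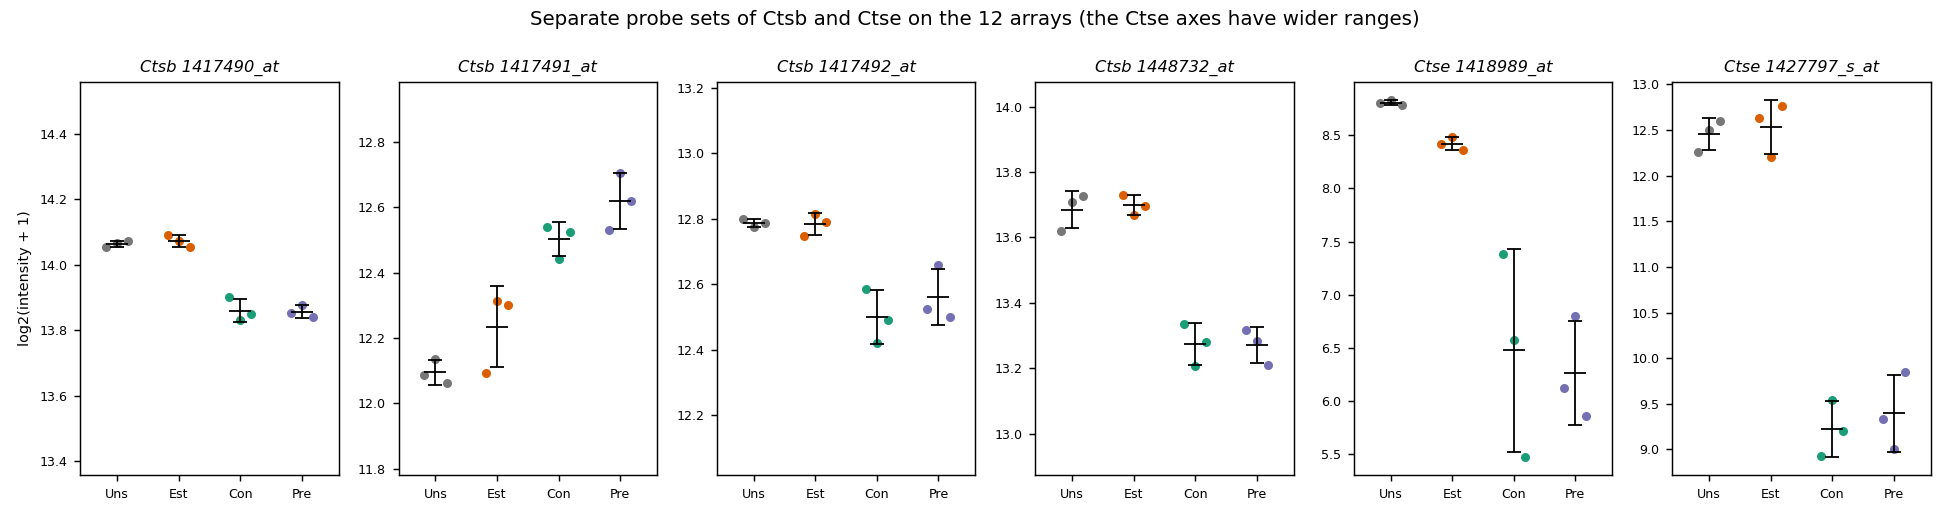
Level of each probe set of Ctsb and Ctse, as log2(intensity + 1), on unstimulated (Uns), estradiol (Est), control (Con) and pregnant (Pre) arrays. Points are arrays, and bars give mean and SD of 3. Lavage lies below the cell line on 3 Ctsb probe sets and above it on 1417491_at, and estradiol lies below unstimulated on Ctse 1418989_at only.

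Cathepsin Z, a carboxypeptidase that removes single amino acids, and cathepsin A, a serine carboxypeptidase that also shields the lysosomal galactosidase and neuraminidase, gave no call for estradiol or pregnancy. The main Ctsz probe set read 14.02, 14.00 and 14.02 in unstimulated cells, 13.99, 14.03 and 14.02 with estradiol, 14.06, 14.08 and 14.08 in control lavage and 14.09, 14.11 and 14.04 in pregnant lavage. Its 3 probe sets gave estradiol differences of -0.05 to 0.0031, source differences of 0.04 to 0.06 and pregnancy differences of 0.0090 to 0.03, with 0 called. Ctsa read 13.49, 13.47 and 13.50 in unstimulated cells, 13.45, 13.51 and 13.43 with estradiol, 13.63, 13.59 and 13.63 in control lavage and 13.62, 13.69 and 13.63 in pregnant lavage. Estradiol gave -0.02 ± 0.05 (limma adjusted p = 0.821). Its higher level in control lavage (0.13 ± 0.04, 1.10-fold, limma adjusted p = 0.0397) lost its call without any 1 unstimulated array (adjusted p = 0.102, 0.122 and 0.0950 without replicates 1, 2 and 3) and without control replicate 1 (0.0680) or 3 (0.0902).

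Most cathepsins sat near the top of the array's scale. The highest tested probe set was at 14.41 to 14.49 on the 12 arrays, and the main probe sets of the 7 genes other than Ctsc, Ctse and Ctsh read 12.67 to 14.14. Within-group SDs of these 7 were 0.0061 to 0.03 in unstimulated and 0.0090 to 0.04 in estradiol cells, and 0.01 to 0.09 in control and 0.02 to 0.08 in pregnant lavage. Whether bright signal compressed their differences was not tested.

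In the lavage samples, none of the 10 cathepsins was called between pregnant and control mice. For the 8 genes other than Ctsc and Ctse the differences lay between -0.02 and 0.06 and the intervals between -0.16 and 0.24 (limma adjusted p = 0.836 to 0.992). Limma called 0 of 16 probe sets, and 0 had an unadjusted p under 0.05, against 2236 of 22626 probe sets (9.88%). No member's pregnant and control arrays were apart without overlap (0 of 16, against 15.8% of all probe sets). With estradiol the groups did not overlap for 7 of 16 (against 33% of all), and between sources for 15 of 16 (against 69.3%).

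Between control lavage and unstimulated cells, 5 of 16 probe sets were called higher and 6 lower, against 26.4% and 34.8% of all probe sets, so the number called is near the share of any probe set. By gene, 4 main probe sets were higher (Ctsh, Ctsc, Ctsd and Ctsa) and 3 lower (Ctse, Ctsk and the main probe set of Ctsb, whose probe sets disagreed), with a median of 0.09 beside -0.07 over all probe sets. Cell source, culture and cell makeup differ together here and cannot be told apart, nor in these bulk samples can fewer cells of a type from less RNA per cell. Each comparison uses its own 2 groups, and the estradiol and source comparisons share the unstimulated arrays.

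Among other genes of the cathepsin system, estradiol calls varied by list, and pregnancy gave none. The shares of all probe sets called with estradiol were 5.1% higher and 4.17% lower. Of 15 other cathepsins and close relatives measured, estradiol called 0, with a median of 0.04 and 2 at an unadjusted p under 0.05. Of 17 inhibitors it called 0 (median -0.02, 3 at an unadjusted p under 0.05), among them the bright Cst3 (-0.04 ± 0.05) and Cstb (0.04 ± 0.05). Of 27 genes for delivery to and processing in lysosomes, 3 rose and 0 fell with a median of 0.0056. These were Hgsnat, a membrane acetyltransferase (0.37 ± 0.06, limma adjusted p = 0.0111), the thioesterase gene Ppt1 (0.24 ± 0.05, 0.0310) and the sorting receptor gene Sort1 (0.27 ± 0.06, 0.0340). Of 21 regulators 0 rose and 2 fell with a median of -0.0014. Both are transcription factors of the MiT family, Tfeb, which drives lysosomal genes (-0.54 ± 0.11, limma adjusted p = 0.0283), and Tfec (-0.35 ± 0.07, 0.0321).

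In pregnancy limma called 0 of the members of these lists, and their unadjusted p was under 0.05 for 2 of 15 cathepsins, 1 of 17 inhibitors, 0 of 27 delivery genes, 1 of 21 regulators, 2 of 10 class II genes and 1 of 9 granule proteases. One of these, chosen after its value was seen, was Ctsw, the cathepsin of cytotoxic lymphocytes (-1.08, 4.85 against 5.93, dim throughout). The T cell markers had a median of -0.38 over 8 genes with 0 called, and the NK cell markers -0.14 over 3 genes with 0 called. Of single markers, Cd8a, dim in both groups, differed by 0.02 and Prf1 by -0.14. The part of these cell types in the Ctsw value was not tested.

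Between sources, where 26.4% of all probe sets were called higher and 34.8% lower, most of these lists also had calls. Other cathepsins had 1 higher (Ctsw, dim in both groups) and 0 lower of 15. Inhibitors had 5 higher and 4 lower of 17. Among them Serpinb1a, dim in unstimulated cells, was at least 42.4-fold higher, Cst7, dim in control lavage, was at least 3.9-fold lower, and Serpinb6b differed by -2.66. Ctla2a was called higher, but was dim in unstimulated cells and above the 40th percentile on 1 of 3 control arrays. Delivery genes had 13 higher and 7 lower of 27, with the sorting receptor Sort1 (5.78), the mannose 6-phosphate receptor Igf2r (-4.50, with 1 of 3 control arrays above the 40th percentile), Scarb2 (1.71) and Neu1 (1.23). Regulators had 9 higher and 4 lower of 21, with Tfec (1.54), Usf1 (1.10), Rraga (-1.02) and Nfatc1 (-0.82). Granule proteases had 1 higher (Gzma) and 3 lower of 9, all dim in both groups.

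Upstream sequences are shown for Ctsd, the member known as an estrogen target, and for Ctsc and Ctsk, which differed most between sources among the members with a promoter in the RefSeq table (GRCm38.p6). The table matched 7 of the 10 genes, with 8 start sites. Each line gives the 250 bases before the annotated start, 5′ to 3′ on the gene's strand. Capitals mark the E-box CACGTG, which is the core of the element bound by Tfeb, the estrogen response element half-site GGTCA or TGACC, and the ETS core GAGGAA or TTCCTC, on which the macrophage factor PU.1 can sit. The windows lie at chr7:142387828-142388077 (minus strand) for Ctsd, chr7:88277835-88278084 (plus strand) for Ctsc and chr3:95498960-95499209 (plus strand) for Ctsk.

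Ctsd: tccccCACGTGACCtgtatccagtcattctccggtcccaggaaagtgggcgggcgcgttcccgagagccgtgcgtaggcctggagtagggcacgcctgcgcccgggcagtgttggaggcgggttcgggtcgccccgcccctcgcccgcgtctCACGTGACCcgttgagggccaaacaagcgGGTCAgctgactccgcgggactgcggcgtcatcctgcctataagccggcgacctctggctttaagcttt

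Ctsc: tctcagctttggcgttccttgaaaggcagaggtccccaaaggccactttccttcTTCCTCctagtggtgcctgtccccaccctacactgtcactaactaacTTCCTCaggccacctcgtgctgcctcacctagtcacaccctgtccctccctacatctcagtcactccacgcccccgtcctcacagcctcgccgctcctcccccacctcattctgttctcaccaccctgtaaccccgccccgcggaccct

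Ctsk: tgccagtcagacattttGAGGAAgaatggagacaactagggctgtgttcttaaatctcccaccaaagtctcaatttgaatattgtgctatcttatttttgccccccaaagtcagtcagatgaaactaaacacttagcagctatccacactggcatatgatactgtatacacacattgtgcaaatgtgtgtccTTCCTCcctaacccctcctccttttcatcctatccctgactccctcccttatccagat

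The E-box was found in 3 of the 8 cathepsin windows, those of Ctsa, Ctsd and Ctsl, against 6.02% of 32851 promoter windows of the same length. Ctsd held 2, beginning 245 and 98 bases before the start, and each overlapped a TGACC half-site beginning at 241 and 94. Its remaining half-site, GGTCA, began at 69. A half-site was found in 5 of 8 windows (Ctsa, both starts, Ctsd, Ctss and Ctsz), against 35.2% of all, and an ETS core in 3 of 8 (Ctsc, Ctsk and Ctss), against 23.3%. Ctsc, higher in lavage, and Ctsk, lower in lavage, each held 2 ETS cores. The 3 genes with an E-box had estradiol differences of -0.02, 0.06 and 0.11, none called.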

How the data were processed

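The deposited table holds 1 linear intensity per probe set and array (6.51 to 23009 without controls). Per the submitters' processing notes, the authors made these values with RMA (version not given in the sources used here), which corrects background, equalises array distributions and summarises probes. Array medians were 369 to 393, and no arrays were identical. The 64 control probe sets were left out of the tests. Values were taken as log2(intensity + 1), which slightly understates changes of dim genes. Each comparison was fitted with limma 3.58.1 in R 4.3.3 (lmFit, eBayes) on its own 6 arrays (all 12 for the difference between changes), two-sided, with Benjamini-Hochberg adjustment over 22626 probe sets. The steps were tested on simulated data. Precision is limited by 3 arrays a group.

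Named were all members with every probe set, and from each list up to 4 called genes by smallest p (estradiol, pregnancy) or by largest difference (source). Cd74 and H2-Eb1 were named beyond that rule, after their values were seen. Members and lists were chosen with earlier results of these data known. Replicates carry only accession order, so none were paired. Of 205 list entries, aliases included, those with a single-gene probe set were counted. Promoter windows came from RefSeq. Figures used Python 3.11.15 with matplotlib 3.10.9. Alternatives were quantile normalization, a common median, a filter on dim probe sets, 1 probe set or the mean of probe sets per gene, no pseudocount, array weights, a robust prior that depends on intensity, a single fit of all 12 arrays, an adjusted p under 0.01, and each array left out.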

Additional observations from a re-analysis of the deposited data

Results flagged for a closer look

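The Ctsh probe set gave different changes in the 2 settings by a test of the difference itself, but its RAW264.7 signals were dim on all 6 arrays, so the test does not show a differing response of Ctsh RNA. The pregnancy change minus the estradiol change was -1.32 ± 0.22 on the log2 scale (limma adjusted p = 0.0116 over all 12 arrays, and 0.00083 to 0.0358 over the alternatives). Lavage levels were 13.05 in control and 13.04 in pregnant mice, whereas RAW264.7 signals were 4.85 and 6.15. The estradiol arrays were above the unstimulated ones in 3 of 3 cases. The part of the different starting levels in this difference was not tested.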

How the results depend on the processing

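No cathepsin probe set that was called in the main fit of a comparison changed direction under any alternative run. Ctse, whose main probe set was called for estradiol only with array weights, ranged from -0.15 to 0.28 over the alternatives. The lower end is the mean of both Ctse probe sets, which includes the fall of the dimmer one. With estradiol the genes called higher numbered 1, but 0 with the filter on dim probe sets (which removes Ctsh), 0 at an adjusted p under 0.01, 2 with the robust prior (Ctsh and Ctsl), 3 with array weights (Ctsh, Ctsl and Ctse) and 0 to 1 with an array left out. Genes called lower numbered 0, but 1 with array weights (Ctsc) and 0 to 1 with an array left out. All probe sets called numbered 2098, with 8297 under array weights, 696 at the stricter threshold and 801 to 2649 with an array left out. Dropping unstimulated replicate 1, 2 or 3 left 836, 801 or 827 calls, and dropping estradiol replicate 3 left 1014. Dropping unstimulated replicate 3 ended the call of Ctsh, and dropping estradiol replicate 2 added that of Ctsc. In pregnancy 0 probe sets were called, 39 in one fit of all 12 arrays and 0 to 1 with an array left out (1 without control replicate 1), with 0 cathepsins in each. Between sources 13832 were called, and 7671 or 7785 with 1 probe set or the mean per gene, where fewer features were tested. Cathepsin genes called there numbered 4 higher (3 to 4 with an array left out, 3 at the stricter threshold, 5 with the common median, the dim filter or one fit of all 12 arrays, and 6 with the robust prior) and 3 lower (2 with the mean of probe sets, where Ctsb is lost). For the difference between changes 712 were called, 2195 with array weights, 194 at the stricter threshold (0 cathepsins, against 1) and 343 to 768 with an array left out, which were 379, 343 and 355 on dropping unstimulated replicate 1, 2 or 3, and 442 and 386 on dropping estradiol replicate 1 or 3. Other causes were not tested. No paired analysis was possible because replicate numbers follow accession order only.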
